A study of Mus musculus with 8 samples.

Results

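The comparison set CD45+ cells from wild-type (WT) mouse eyes 3 days after laser injury against CD45+ cells from WT control eyes that received no laser. Its members were the barcodes of both libraries in which between 200 and 5000 genes were detected and mitochondrial UMIs did not exceed 15%, which gave 3791 laser cells and 3763 control cells, 7554 of the 11223 cells kept over the 4 libraries of the series. The mice carried the strain label C57BL/6J, were female and 10 to 12 weeks old, and the treatment field reads laser or sham. Laser-treated eyes received 8 burns, a standard way of rupturing Bruch's membrane so that vessels of the choroid grow under the retina. Posterior eye cups (retina and choroid in the labels) of 11 to 12 laser-treated mice or 22 control mice were pooled into 1 library per group, and live CD45+ cells were sorted, so that RNA and 87 surface protein tags could be read in the same cells by CITE-seq. With 1 pooled library per group there was no replicate and no test between groups. Each ratio of laser to control therefore carries a 95% interval for counting error only, which leaves out the spread between animals, pools and libraries. A second pair of libraries, laser and control eyes of mice lacking Nr4a1 (Nr4a1-/-, a germline null allele, labelled C57BL/6J and described in the study's methods as of mixed B6;129S2 background), shares no library with the WT pair and is given beside it.

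CD45 is carried by every leukocyte, so the sort collects resident microglia, tissue macrophages, infiltrating monocytes and dendritic cells together with lymphocytes and neutrophils. Microglia tile the retina, macrophages lie along the vessels of the choroid, and circulating monocytes enter the lesion after a burn and mature into macrophages there. Phagocytes that take up debris and lipid are known to switch on osteopontin (Spp1), the lysosomal glycoprotein Gpnmb, fatty acid binding proteins and cathepsins. Gamma delta T cells, which live in barrier tissues, are a known early source of interleukin 17A (Il17a). In bulk sums over all cells, fewer cells of a type and less RNA per cell cannot be told apart, and the gated classes described further on separate them only as far as the gates do.

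The laser library was the deeper, with 33446781 RNA UMIs (unique molecule counts) in kept cells against 23750183 in the control, and medians of 7618 and 5202 UMIs and 2534 and 2032 genes per cell. Ptprc, the gene of CD45, had a UMI in 92.1% of laser cells and 91.3% of control cells. Nr4a1, the gene disrupted in the second pair, stood at 278 UMIs per 1000000 UMIs of the library (CPM) in the WT laser library and 309.7 in the WT control, against 54.9 and 90.7 in the Nr4a1-/- laser and control libraries. The genotype and treatment fields of the WT tag samples read Nr4a1-/- and sham, against their titles, and the titles were followed because tags and RNA share barcodes. The WT libraries had 7 cell barcodes in common. Barcodes with at least 3 markers of more than 1 lineage made up 32.1% of laser cells and 25.1% of control cells, and they were kept.

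Over all CD45+ cells, 9 of 17 genes of the Spp1 and Gpnmb phagocyte list, 6 of 9 genes of the interleukin 17 program and 6 of 17 interferon-stimulated genes were at least 2-fold higher after laser, while 10 of 10 B cell genes and 11 of 12 photoreceptor genes were at least 2-fold lower. Among the 14121 genes with at least 50 UMIs in the pair, 372 (2.63%) were at least 2-fold higher after laser and 606 (4.29%) at least 2-fold lower, and the list counts are to be read against these shares. The whole interval lay past 2-fold for 166 of the higher and 229 of the lower genes. Without the cell of highest count for each gene in each library, 401 (2.84%) were higher and 617 (4.37%) lower. The median log2 ratio of all genes tested was -0.10. The balance of higher and lower genes differed between ways of scaling and weighting. It was 372 to 606 when UMIs were summed, 466 to 485 with median-of-ratios scaling, 570 to 378 when each cell had equal weight, and 240 to 195 among 11048 genes when each cell was thinned to 2000 UMIs and shallower cells left out. The median of all genes moved too, to -0.000681, -0.02 and -0.03 in the same order.

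Arginase 1 (Arg1, chr10:24915221-24927484, GRCm38, minus strand), the enzyme that turns arginine into ornithine in alternatively activated macrophages, had the ratio with the highest lower bound. It was at 46.04 CPM in the laser library against 0.674 CPM in the control (1540 against 16 UMIs), a ratio of 68.3 (41.95 to 119.9), and 135 laser cells and 15 control cells held a UMI. Spp1 (chr5:104435118-104441050, plus strand), a secreted phosphoprotein that binds integrins, was at 1287 CPM in the laser library against 51.3 CPM in the control (43053 against 1219 UMIs), a ratio of 25.1 (23.7 to 26.6). A single control cell held 44.1% of the control UMIs of Spp1, and without the cell of highest count in each library the ratio was 42.8. Il17a (chr1:20730905-20734496, plus strand) was at 18.3 CPM in the laser library against 1.01 CPM in the control (613 against 24 UMIs), a ratio of 18.1 (12.1 to 28.5), from 51 laser cells and 5 control cells. The cell of highest count held 41.9% of the laser UMIs and 75% of the control UMIs of this cytokine, so its level rested on few cells, and without that cell in each library the ratio was 42.1. Gpnmb (chr6:49036546-49070929, plus strand) was at 143 CPM in the laser library against 15.03 CPM in the control (4788 against 357 UMIs), a ratio of 9.52 (8.55 to 10.6), and the fatty acid binding protein Fabp5 at 469 CPM in the laser library against 61.2 CPM in the control (15691 against 1454 UMIs), a ratio of 7.66 (7.26 to 8.09). After each cell was thinned to 2000 UMIs, Arg1 was found in 1.72% (1.32 to 2.20%) of 3545 laser cells and 0.0594% (0.00719 to 0.214%) of 3367 control cells, and Spp1 in 15.8% (14.6 to 17.04%) of 3545 laser cells and 1.96% (1.52 to 2.49%) of 3367 control cells.

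The bases before the start of 3 of these genes are shown because these genes had some of the highest ratios. Arg1 is named only. Each run holds 250 bases of the plus strand of GRCm38.p6 ending just before a RefSeq gene start, and Spp1 has a pair of starts, of which the second lies inside the gene. Capitals mark matches, on either strand, to motifs that were searched in all 4 runs: CACGTG and CATGTG (E-boxes), TGANTCA (AP-1), TTCNNNGAA (STAT), ACGTG (hypoxia element, contained in CACGTG) and AGGTCA (nuclear receptor).
Spp1, chr5:104434861-104435110: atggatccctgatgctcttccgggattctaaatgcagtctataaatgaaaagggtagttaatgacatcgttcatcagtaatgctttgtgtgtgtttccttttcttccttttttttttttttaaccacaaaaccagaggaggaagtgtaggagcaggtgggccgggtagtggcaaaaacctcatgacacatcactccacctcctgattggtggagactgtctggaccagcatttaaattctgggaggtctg
Spp1, chr5:104435942-104436191: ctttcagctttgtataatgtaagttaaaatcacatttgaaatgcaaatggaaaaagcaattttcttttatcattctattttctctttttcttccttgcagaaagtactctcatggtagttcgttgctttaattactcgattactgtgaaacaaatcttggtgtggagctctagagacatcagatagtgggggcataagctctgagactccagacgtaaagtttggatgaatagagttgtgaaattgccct
Gpnmb, chr6:49036268-49036517: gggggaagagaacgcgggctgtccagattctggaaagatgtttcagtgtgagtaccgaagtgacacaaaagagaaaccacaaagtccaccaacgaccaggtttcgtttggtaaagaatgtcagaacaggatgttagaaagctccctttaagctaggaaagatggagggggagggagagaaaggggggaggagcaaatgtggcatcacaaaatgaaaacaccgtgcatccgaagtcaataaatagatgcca
Il17a, chr1:20730655-20730904: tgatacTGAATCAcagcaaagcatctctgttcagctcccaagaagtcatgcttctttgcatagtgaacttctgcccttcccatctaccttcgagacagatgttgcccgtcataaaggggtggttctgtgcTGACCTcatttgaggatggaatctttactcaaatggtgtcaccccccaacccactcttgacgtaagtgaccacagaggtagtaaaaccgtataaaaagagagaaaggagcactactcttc
The Spp1 and Gpnmb runs held no match to these motifs. In the Il17a run, TGANTCA stood 244 bases before the start and AGGTCA, on the minus strand, 120 bases before it. Among 32536 windows of all genes, 6.73% held TGANTCA, 14.04% AGGTCA, 6.04% CACGTG, 12.3% CATGTG, 7.04% TTCNNNGAA and 16.7% ACGTG. A match describes the letters of the window and not binding.

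The 7 other higher genes picked by the bound of their interval had ratios from 6.37 to 22.4. Saa3, an acute phase protein of macrophages, was at 12.98 against 0.926 CPM, ratio 14.01 (9.13 to 22.6). The G protein subunit Gna14 was at 11.5 against 0.800 CPM, ratio 14.4 (9.11 to 24.2), and coagulation factor VII (F7) at 7.18 against 0.884 CPM, ratio 8.12 (5.19 to 13.4). The transcript AA467197, also known as Nmes1, was at 68.9 against 10.8 CPM, ratio 6.40 (5.62 to 7.31). St18, a zinc finger transcription factor, had a ratio of 6.37, Dppa3 of 7.91 and the metalloproteinase Mmp27 of 22.4, the last from 63 against 2 UMIs. All of these were higher after laser in the Nr4a1-/- pair too, with ratios there of 8.66 for Saa3, 10.5 for Gna14, 17.3 for F7 and 5.07 for AA467197. Arg1 was at 98.9 against 0.603 CPM in the Nr4a1-/- laser and control libraries and Spp1 at 3121 against 28.3 CPM, and Il17a had 36 UMIs in the Nr4a1-/- laser library and 0 in its control.

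**Figure D1:**
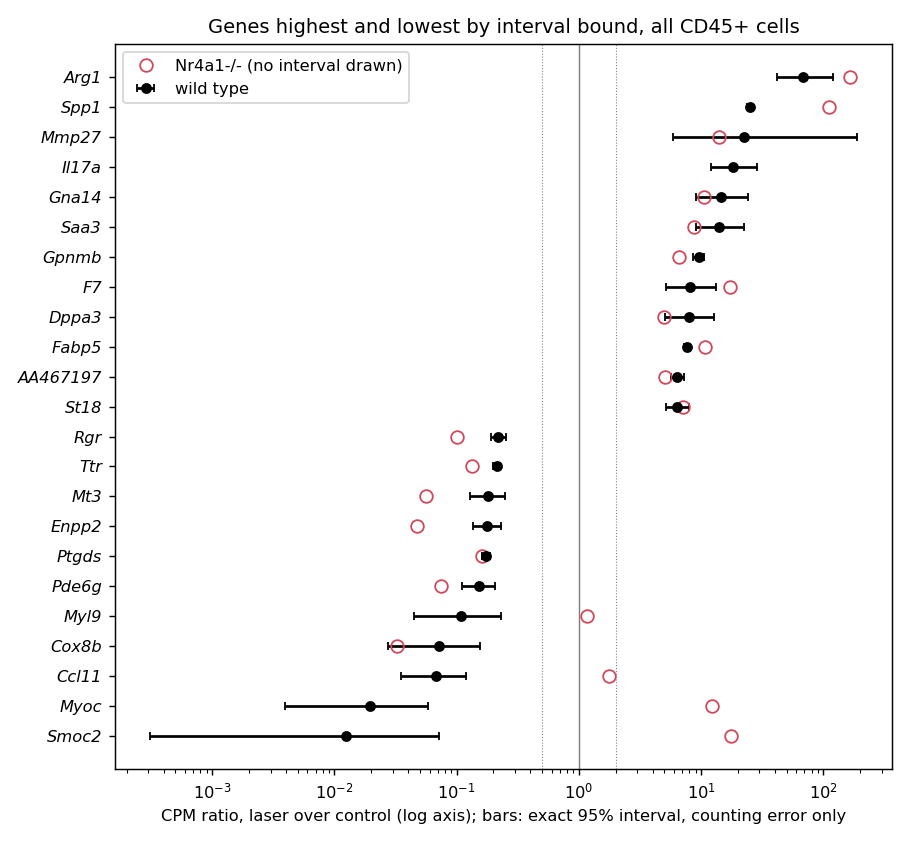
Ratio of laser to control CPM over all CD45+ cells, on a log axis, for 12 higher and 11 lower genes with the interval bound farthest from 1. Filled points are the WT pair with 95% counting intervals and open circles the Nr4a1-/- pair, and Il17a has no open circle because its Nr4a1-/- control count was 0. Arg1 lies farthest to the right at 68.3 and Smoc2 farthest to the left at 0.0125, where the open circle lies on the other side of 1.

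Most UMIs of Spp1 and Arg1 in the laser library came from the macrophage gate. Gates were built from detected marker genes (at least 3 markers of a list). Markers of any gate were left out of gene counts, list counts and named genes within gates. Ttr, a marker of the pigment epithelium gate, is given within that gate further on. The B cell, T cell, NK cell and pigment epithelium lists hold the same genes as the markers of those gates. In macrophages Spp1 stood at 3553 against 94.9 CPM, and the macrophage gate held 87.6% of all laser Spp1 UMIs. A UMI of Spp1 was found in 47.1% and 8.02% of laser and control macrophages. B cells, which are not known to make osteopontin, had a UMI in 18.5% and 1.82% of cells at 165 against 3.94 CPM, with median depths of 4330 and 4092 UMIs against 11293 and 6874 in macrophages, and the values of other gates are to be read beside these. Classical monocytes were at 844 against 7.28 CPM and microglia at 273 against 228 CPM. A single cell held 90.1% of the Spp1 UMIs of control microglia and 1 cell 55.6% of those of laser microglia, and without the cell of highest count in each library microglia were at 121 against 22.5 CPM, so that the microglial ratio went from 1.20 to 5.39. In macrophages it went from 37.4 to 44.9. Arg1 was at 118 against 1.46 CPM in macrophages, which held 81.2% of its laser UMIs, and at 1.75 against 0 CPM in microglia. Gpnmb was at 398 against 69.03 CPM in macrophages and 25.7 against 4.20 CPM in microglia, or 9.34 against 2.67 CPM without the cell of highest count in each library.

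**Figure D2:**
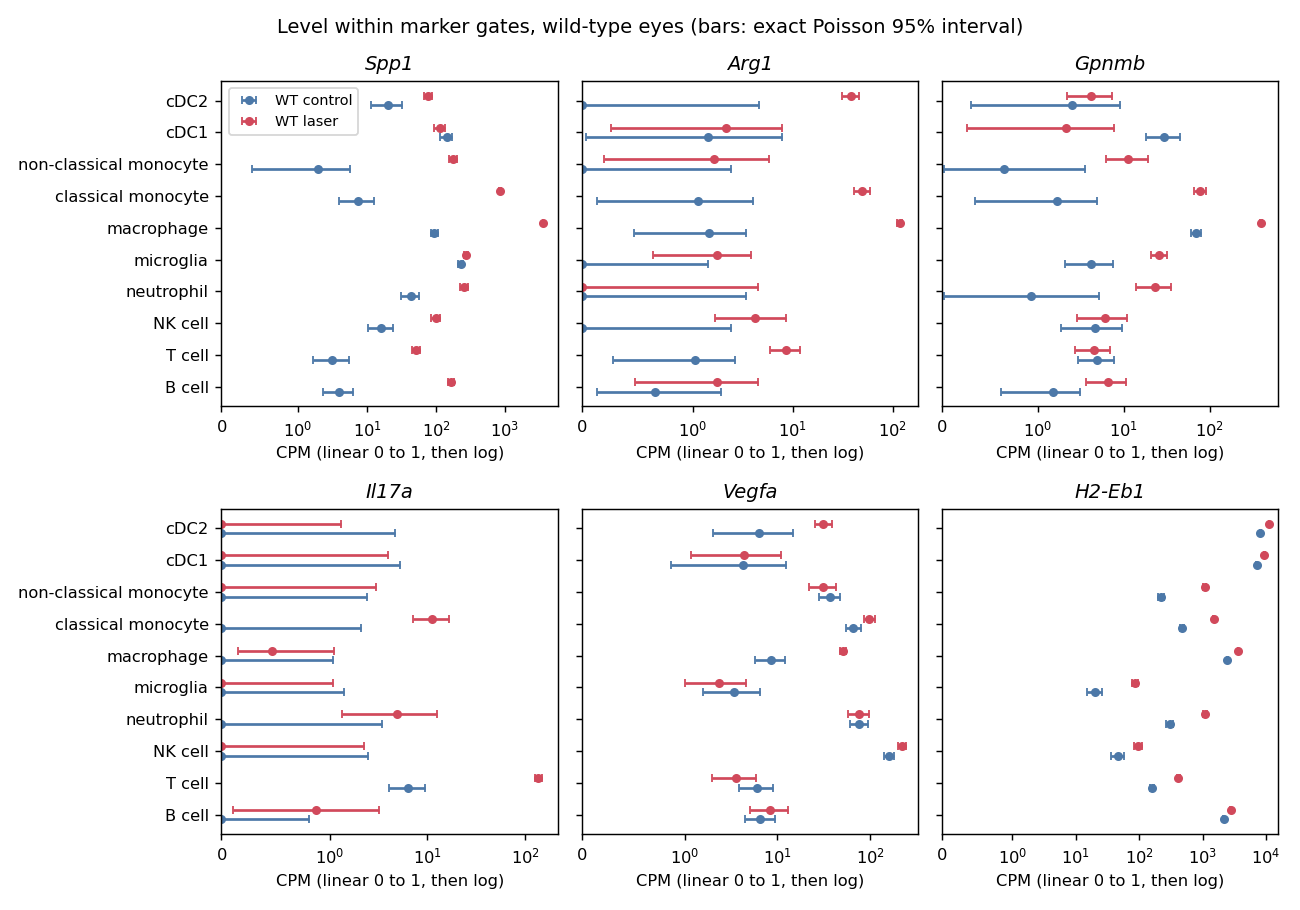
Levels of Spp1, Arg1, Gpnmb, Il17a, Vegfa and H2-Eb1 in 10 gated classes of the WT laser (red) and control (blue) libraries, in CPM of the UMIs summed within the class, with exact Poisson 95% intervals, on an axis that is linear from 0 to 1 and then logarithmic. Spp1 and Arg1 are high in laser macrophages (3553 and 118 CPM), and Il17a in laser T cells (137 CPM).

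Across the Spp1 and Gpnmb list the median log2 ratio was 1.07, beside -0.10 over all genes tested. Galectin 3 (Lgals3) was at 1201 against 459.9 CPM, ratio 2.61 (2.56 to 2.67), the tetraspanin Cd63 at ratio 2.44, cathepsin B (Ctsb) at 2.30, apolipoprotein E (Apoe) at 2.09 and the elastase Mmp12 at 2.72. Trem2 (ratio 1.65), Lpl (1.77), Axl (1.96) and Itgax (1.94) stayed under 2-fold, and Cst7 (0.809) and Fabp4 (0.842) were below 1. All 18 lysosome genes were above 1, with a median log2 of 0.75, but only 3 reached 2-fold: the proton pump subunit Atp6v0d2 (2.86), cathepsin K (Ctsk, 2.66) and Cd68 (2.13). Of 14 lipid genes, 3 were at least 2-fold higher, namely the lipid droplet coat Plin2 (2.27), the scavenger receptor Olr1 (2.08) and the sterol receptor Nr1h3 (2.08).

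Besides Il17a, 5 genes of the interleukin 17 program were at least 2-fold higher. The median log2 ratio of 9 tested members was 1.45. Cd163l1, a scavenger receptor of gamma delta T cells, was at 15.9 against 2.65 CPM, ratio 6.00 (4.61 to 7.92). Il17f was at 1.55 against 0.295 CPM, ratio 5.27 (2.39 to 13.8) from 52 against 7 UMIs, and at a ratio of 3.02 without the cell of highest count in each library. The receptor chains Il23r (2.75) and Il1r1 (2.45) were higher as well. Ccr6 (0.518) and the kinase Blk (0.390) were lower, and both are also carried by B cells, whose genes are given further on. The T cell gate held 94.3% of the laser Il17a UMIs, at 137 against 6.27 CPM, and Trdc, the constant region of the gamma delta receptor, had a ratio of 1.82 over all cells. Cd163l1 stood, among Nr4a1-/- libraries, at a ratio of 1.70 and Il23r at 1.17.

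Interferon-stimulated genes were all above 1 in the summed UMIs, with a median log2 of 0.88 over 17 members. The antiviral genes Ifit3 (3.59), Rsad2 (3.48), Ifi44 (2.71), Ifit2 (2.36) and Ifit1 (2.32) had the highest ratios, while the transcription factor Stat2 (1.1) differed little. In the Nr4a1-/- pair 2 of 17 interferon-stimulated genes were at least 2-fold higher, with a median log2 of 0.53. Of 24 chemokine ligands 6 were at least 2-fold higher and none at least 2-fold lower. The neutrophil attractants Cxcl3 (5.22) and Cxcl1 (3.12), the eosinophil and monocyte attractant Ccl8 (4.06), Cxcl14 (4.41), Cxcl16 (2.19) and Cxcl13 (2.04, from 46 against 16 UMIs and 4.62 without the cell of highest count in each library) made up that count. The monocyte attractant Ccl2 was at 852 against 448 CPM, ratio 1.90 (1.86 to 1.95), just under the limit. Cxcl3 and Cxcl1 had ratios in the Nr4a1-/- pair of 1.23 and 1.18, against 12.5 for Ccl8.

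Among 13 chemokine receptors Cxcr6 (2.78) was at least 2-fold higher, and Cxcr5 (0.395) of B cells and Cxcr2 (0.392) of neutrophils were at least 2-fold lower. The cytokine list had 4 of 19 higher, with Il17a and Il1r1 among them. Its inhibitor of interleukin 1, Il1rn, was at 115 against 39.9 CPM, ratio 2.88 (2.68 to 3.10), while Il1b itself had a ratio of 1.37 and Tnf of 0.836. The interleukin 18 antagonist Il18bp (2.40) was higher too. Of 19 matrix genes 4 were at least 2-fold higher: the inhibitor Timp1 (14.7 against 2.48 CPM, ratio 5.93 (4.52 to 7.91)), Mmp14 (3.27), Mmp12 (2.72) and Mmp19 (2.25). Timp3, a matrix-bound inhibitor that the pigment epithelium makes, was at 7.18 against 25.8 CPM, ratio 0.278 (0.239 to 0.324). Complement factor B (Cfb, 3.87) and properdin (Cfp, 2.11) of the alternative pathway were higher, and the C1 inhibitor Serping1 (0.296) and the B cell receptor Cr2 (0.342) lower.

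Among the genes the study names, Vegfa, the main growth factor of new vessels, was at 46.1 CPM in the laser library against 28.3 CPM in the control (1542 against 671 UMIs), a ratio of 1.63 (1.49 to 1.79). In the angiogenic list Areg (2.38) and the receptor gene Kdr (2.10, 83 against 28 UMIs) were at least 2-fold higher, and Vegfc (0.525) and Flt1 (0.605) were below 1. The Vegfa level of macrophages was 50.9 against 8.45 CPM and that of cDC2, the dendritic cells that present to CD4+ T cells, 31.3 against 6.25 CPM, from 89 and 5 UMIs, of which 1 cell held 40% in the control. Among the leukocyte gates NK cells had the highest Vegfa level in both libraries, 222 against 161 CPM, and the few cells of the pigment epithelium gate were at 38.8 against 301 CPM. H2-Eb1, a chain of MHC class II, was at 3228 CPM in the laser library against 1460.0 CPM in the control (107962 against 34675 UMIs), a ratio of 2.21 (2.18 to 2.24). Mmp14 was at 33.8 against 10.3 CPM, ratio 3.27 (2.85 to 3.77), Csf1 at 58.03 against 37.9 CPM, ratio 1.53 (1.42 to 1.66) and Itgax, the gene of CD11c, at 50.3 against 25.98 CPM, ratio 1.94 (1.77 to 2.13). The CD11c antibody tag lay on the other side of 1, at 0.895 (0.866 to 0.924) without the 1% of barcodes with most tags. In the Nr4a1-/- pair this tag was at 13.4 on the same setting, and the difference was not tested. Over all kept barcodes this tag was found on 47.8% of laser cells and 46.7% of control cells. Cxcr4 (1.27), Igf1 (1.16), Hif1a (1.1) and Nr4a1 (0.897) differed by less than 1.5-fold, and Igf1 was at 0.956 without mixed barcodes.

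Several gene lists showed few or no members past 2-fold. Glycolysis had 0 of 16 higher with a median log2 of 0.40, led by Tpi1 (1.70) and Pgam1 (1.67). In the hypoxia response 1 of 15 was higher, the lipid droplet gene Hilpda (95.8 against 34.4 CPM, ratio 2.78 (2.58 to 3.01)). MHC class I genes had none past 2-fold and a median log2 of 0.44, and MHC class II had H2-Eb1 alone. The 20 immediate-early genes and the 11 heat shock chaperones, which are known to be induced during tissue dissociation, had none past 2-fold in the WT pair. In the Nr4a1-/- pair 5 of 11 heat shock genes were at least 2-fold lower. The 16 cell cycle genes were all above 1 in the WT pair, with Ccnb2 (2.25) past 2-fold and a median log2 of 0.56. In the Nr4a1-/- pair 15 of 16 were at least 2-fold higher, with a median of 1.80.

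**Figure D3:**
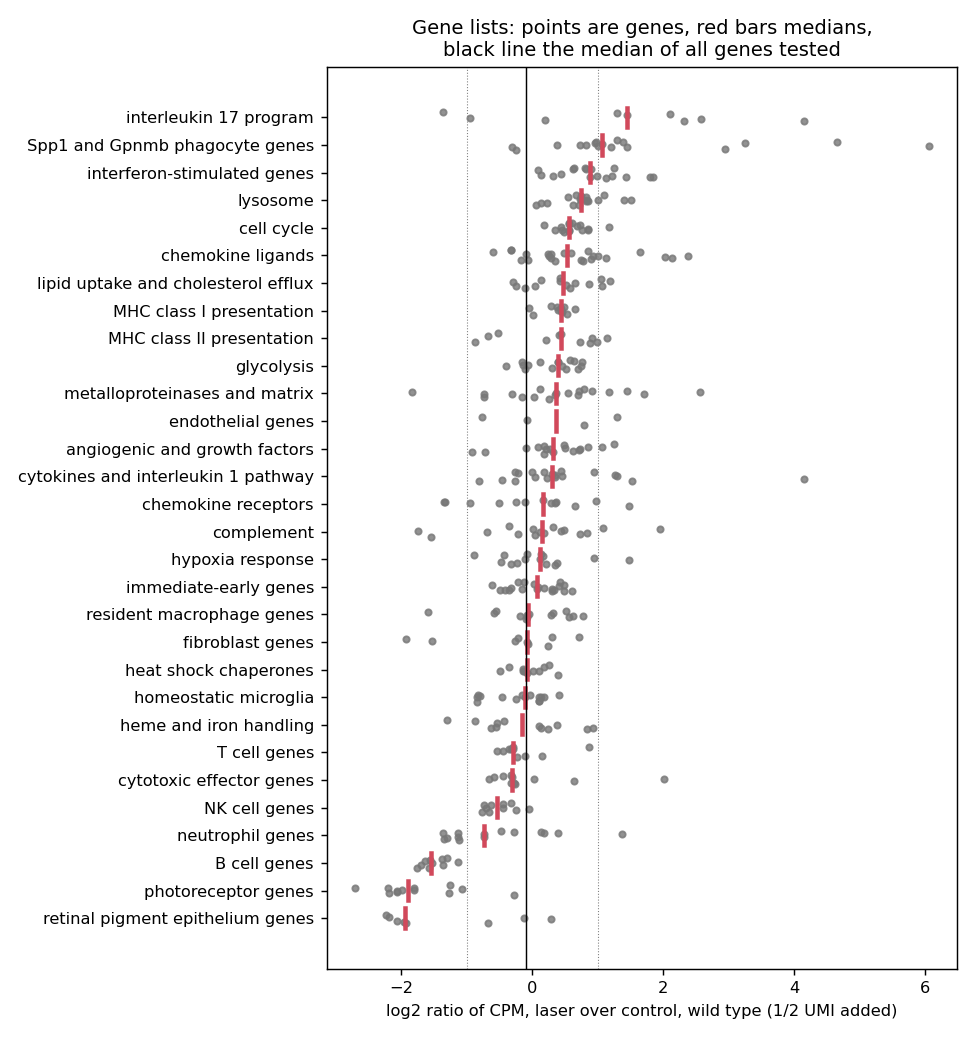
Log2 ratio of laser to control for every tested member of each gene list (points) and the list median (bar), with the median of all genes tested as a line at -0.10. The phagocyte, interleukin 17 and interferon lists lie to the right and the B cell, pigment epithelium and photoreceptor lists to the left.

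Many of the named lower genes rested on few cells. Myoc had 3 laser UMIs against 109 control UMIs from 3 laser cells and 5 control cells, and Smoc2 had 1 against 57. Both are known from stromal cells and not from leukocytes, and in the Nr4a1-/- pair they differed the other way (7 against 1 and 10 against 1 UMIs). Ptgds was at 29.4 against 169 CPM, ratio 0.174 (0.162 to 0.187) and the thyroxine carrier Ttr at 43.8 against 207 CPM, ratio 0.212 (0.200 to 0.225). Of 8 pigment epithelium genes 5 were at least 2-fold lower, with a median log2 of -1.95. The genes of this list, Ttr and Rgr among them, are also the markers that define the pigment epithelium gate. Their counts therefore gather in that gate, and fall when it is left out, by construction. The gate, 8 laser and 13 control cells, held 88.7% and 97.5% of the Ttr UMIs at 50466 against 59918 CPM. With that gate left out, Ttr was at 0.942, Enpp2 at 0.924, Cox8b at 0.567, Ptgds at 0.404, and Rgr at 1.29, on the other side of 1.

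Of 12 photoreceptor genes 11 were at least 2-fold lower (median log2 -1.90). All 10 B cell genes were at least 2-fold lower with a median log2 of -1.55, from Fcmr (0.294) and Ms4a1 (0.306), the gene of CD20, to Ighm (0.454). Of 14 neutrophil genes 6 were at least 2-fold lower, with S100a8 at 582 against 1278 CPM, ratio 0.456 (0.448 to 0.464) and Retnlg at 0.390, while lactoferrin (Ltf, 2.61, 92 against 25 UMIs) was higher. T cell and NK cell genes had none past 2-fold. Erythrocyte genes summed to 0.299 and 1.09 CPM and none had 50 UMIs. Of 9 fibroblast genes Mgp (0.262) and Pdgfra (0.342) were at least 2-fold lower, and of 4 endothelial genes Cdh5 was higher. A single member each passed 2-fold in the cytotoxic list (Gzmc, 4.07), the heme and iron list (Lcn2, 0.405) and the resident macrophage list (Lyve1, 0.333), and none of 15 homeostatic microglia genes. The medians of the latter 3 lists lay from -0.16 to -0.07, near that of all genes, and the sign of each median changed under at least 1 alternative. The part of these non-leukocyte cells in the sums was not tested beyond leaving out the pigment epithelium gate.

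In percentage points, the gates that differed most were B cells and macrophages. B cells made up 10.8% (9.84 to 11.8%) of the laser cells and 23.3% (21.96 to 24.7%) of the control cells, a ratio of 0.464 (0.412 to 0.522), and macrophages 24.7% (23.3 to 26.1%) of the laser cells and 12.9% (11.9 to 14.03%) of the control cells, a ratio of 1.91 (1.71 to 2.14). All mononuclear phagocytes together made up 56.1% (54.5 to 57.6%) of the laser cells and 38.9% (37.4 to 40.5%) of the control cells, a ratio of 1.44 (1.35 to 1.54). Within the phagocytes, cDC2 were 5.28% (4.59 to 6.04%) of the laser cells and 1.75% (1.36 to 2.23%) of the control cells, a ratio of 3.01 (2.27 to 4.04). Migratory dendritic cells, which carry Ccr7 and travel to lymph nodes, numbered 67 after laser and 13 in the control, a ratio of 5.12 (2.80 to 10.1). The shares are of 1 whole, so that a lower share of B cells raises every other share.

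Microglia were at 9.23% against 8.77%, ratio 1.05 (0.903 to 1.23), T cells at 17.2% against 16.5%, ratio 1.04 (0.932 to 1.17) and classical monocytes at 4.96% against 4.97%, ratio 0.998 (0.811 to 1.23), and each of these intervals held 1. Non-classical monocytes, the patrolling cells of vessels, were lower at 4.01% against 5.77%, ratio 0.695 (0.561 to 0.859). Neutrophils were at 3.93% against 4.92%, ratio 0.799 (0.640 to 0.997), but at a ratio of 1.00 without mixed barcodes, and NK cells at 7.44% against 8.72%, ratio 0.853 (0.725 to 1.00). Over the alternatives tried, the B cell ratio ranged from 0.396 to 0.469, the macrophage ratio from 1.73 to 2.03 and the cDC2 ratio from 2.85 to 3.07, while the ratio of migratory dendritic cells, the gate with the fewest control cells of these, ranged from 3.62 to 12.1. The ratios in the Nr4a1-/- pair were 0.469 for B cells, 2.11 for macrophages, 2.07 for cDC2 and 3.55 for migratory dendritic cells but 0.666 for T cells and 0.631 for microglia. Ungated barcodes were at 3.53% against 6.38%, ratio 0.554 (0.445 to 0.687), and at a ratio of 2.10 in the Nr4a1-/- pair.

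**Figure D4:**
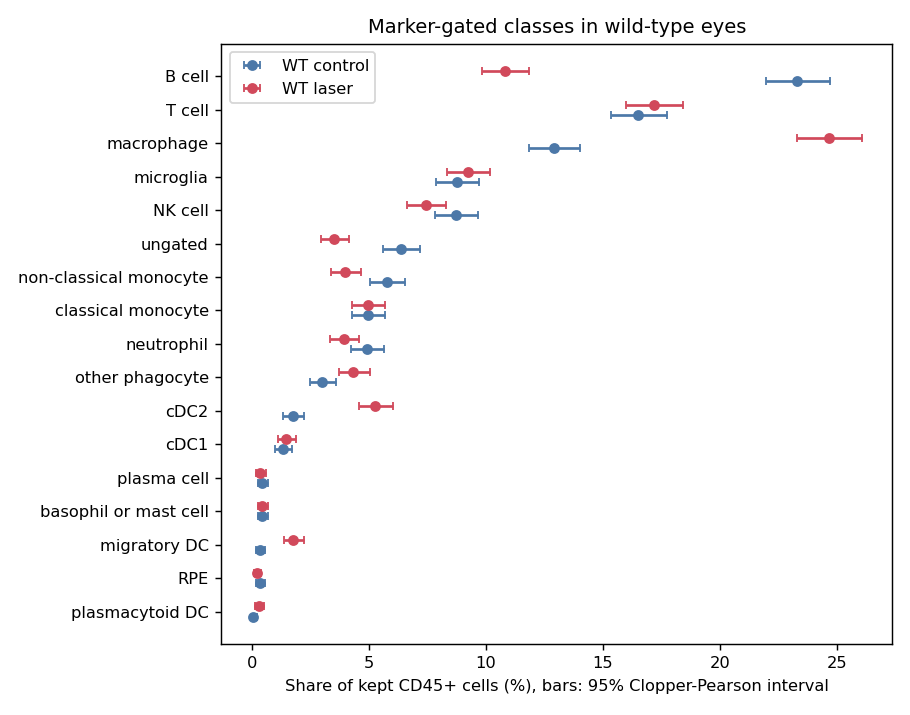
Share of kept cells in each marker gate in the WT laser and control libraries, in percent, with exact 95% intervals. B cells lie at 10.8% after laser against 23.3%, and macrophages at 24.7% after laser against 12.9%.

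The gates were checked against the antibody tags, which they did not use. Tags were ranked by their share of all tag counts of a class, without the 1% of barcodes with most tags. Among the 11 classes with at least 50 cells each, CD90.2 and CD4 were highest in T cells, Ly-6G in neutrophils, P2Ry12 and CX3CR1 in microglia, folate receptor beta (FrB) in macrophages, Ly-6C in classical monocytes, CD103 in cDC1 and CD301b in cDC2, in both libraries. Other tags of a gate's lineage were not highest there in both libraries. Behind microglia, CD8a ranked 2 in T cells, NK-1.1 in NK cells, CD11b in neutrophils and F4_80 and CD64_FcYRI in macrophages, in both libraries, and CD3 ranked 2 in control T cells. In mean counts per cell, microglia lay below the named gate for each of these tags, but some other gates lay above it. In the control library NK-1.1 was at 2.44 per cell in neutrophils, 1.16 in macrophages and 0.825 in NK cells. CD8a was there at 4.89 in neutrophils and 2.72 in T cells, and P2Ry12 at 1.32 in neutrophils and 0.673 in microglia. The ranks are of shares of tag counts and do not all hold for mean counts per cell. In the laser library CD11b was at 155 per cell in neutrophils and 33.4 in microglia. F4_80 was at 1.73 in macrophages and 0.785 in microglia, and CD64_FcYRI at 7.01 and 2.76. CD11c ranked 2 in cDC2 behind cDC1, I-A_I-E (MHC class II) ranked 3 in B cells and CX3CR1 ranked 5 in non-classical monocytes in both libraries. CD43 ranked 1 and 2 in non-classical monocytes of the laser and control libraries, and CD192_CCR2 6 and 9 in classical monocytes. Gates at their limit of 3 markers held 99 laser cells and 133 control cells, and 66 and 121 cells lay 1 marker below it. With the class shares of the control kept and the levels of the laser library put in, 223 of the 372 higher genes stayed past 2-fold, and with the shares of the laser library at control levels 16 did. For the 606 lower genes these counts were 276 and 49. For Arg1 the level part was 44.9 and the share part 1.08, for Spp1 16.98 and 1.20, and for H2-Eb1 1.61 and 1.41.

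Within the macrophage gate (935 laser and 486 control cells), 367 of 10108 genes tested (3.63%) were at least 2-fold higher and 592 (5.86%) at least 2-fold lower. Arg1 was at 118 against 1.46 CPM, ratio 80.9 (34.6 to 249.6), Spp1 at 3553 against 94.9 CPM, ratio 37.4 (33.6 to 41.9) and Fabp5 at 1086 against 101 CPM, ratio 10.7 (9.63 to 11.95). The interferon-induced membrane protein Ifitm1 was at 86.7 against 1.75 CPM, ratio 49.6 (22.7 to 136). Resident macrophage genes went the other way, with 6 of 9 tested at least 2-fold lower and a median log2 of -1.22. Lyve1, the hyaluronan receptor of perivascular macrophages, was at 68.3 against 439.8 CPM, ratio 0.155 (0.142 to 0.170), with a UMI in 13.05% and 44.4% of laser and control cells. Timd4 (0.225), a receptor for apoptotic cells, the haptoglobin-hemoglobin receptor Cd163 (0.331), the lectin Cd209f (0.332), the chemokine Ccl24 (0.428) and Gas6 (0.489) were the others. Lyve1 in Nr4a1-/- macrophages had a ratio of 0.238 and Arg1 had 648 laser UMIs and 0 control UMIs. Matrix genes in the gate had 6 of 13 higher, and lipid genes 4 of 14.

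In microglia (350 and 330 cells), 416 of 8379 genes tested (4.96%) were at least 2-fold higher and 217 (2.59%) at least 2-fold lower. Endothelin 1 (Edn1), a vasoconstrictor peptide, was at 111 against 8.01 CPM, ratio 13.8 (8.90 to 22.6), with a UMI in 22% and 3.94% of laser and control microglia. The calpain subunit Capn2 was at 98.3 against 9.92 CPM, ratio 9.91 (6.64 to 15.4) and Cgref1 at 30.05 against 1.53 CPM, ratio 19.7 (7.46 to 73.6), or 37.1 without the cell of highest count in each library. Interferon-stimulated genes had 8 of 15 higher (median log2 1.13), with Zbp1 at 3.91, Rsad2 at 3.81 (5.86 without those cells) and Rtp4 at 3.63. Cell cycle genes had 6 of 10 higher (median log2 1.20), among them Ube2c at 6.97 and Birc5 at 6.63. Immediate-early genes had 5 of 20 lower and 1 of 20 higher, and heat shock genes 4 of 11 lower, which are the genes that dissociation is known to induce. Dcn and Igfbp5, which were lower in this gate, came from 1 control cell each, and so did most control UMIs of Lyz1.

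In cDC2 (200 and 66 cells), 354 of 6339 genes tested (5.58%) were at least 2-fold higher and 172 (2.71%) at least 2-fold lower. Ifitm1 was at 1712 against 46.2 CPM, ratio 37.03 (26.8 to 52.7), and at 61.5 without the cell of highest count in each library. Gna14 had 251 laser UMIs and none in the control, 23.5-fold higher when the control is set to 3 UMIs, with a lower interval limit of 19.0. The sterol hydroxylase Cyp7b1 had 92 and none, 8.63-fold on the same setting, with a lower limit of 6.88. Interferon-stimulated genes had 7 of 15 higher, with Ifit3 at 11.04 (29.3 without those cells), Rsad2 at 8.94 and Irf7 at 6.75. A single cell held 98.1% of the Arg1 UMIs of laser cDC2. The chemokine Cxcl9 was lower, at 72.8 against 269 CPM, ratio 0.271 (0.223 to 0.329). In cDC1, the cross-presenting dendritic cells (56 and 50 cells), 114 of 3974 genes tested (2.87%) were at least 2-fold higher and 173 (4.35%) at least 2-fold lower, and Ifitm1 was at 72.2 against 2.82 CPM, ratio 25.7 (6.83 to 216).

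In classical monocytes (188 and 187 cells), 125 of 6682 genes tested (1.87%) were at least 2-fold higher and 33 (0.494%) at least 2-fold lower. Spp1 was at 844 against 7.28 CPM, ratio 116 (67.6 to 218), but 1 laser cell held 52.5% of its UMIs, and without the cell of highest count in each library the ratio was 79.6. Chemokine ligands had 7 of 14 higher (median log2 1.01), with Cxcl1 at 20.8, Ccl7 at 4.84 (7.88 without those cells) and Ccl5 at 3.84 (7.33). The cell adhesion gene Flrt3 was at 28.5 against 0.560 CPM, ratio 50.98 (8.82 to 2046). In non-classical monocytes (152 and 217 cells), 71 of 5918 genes tested (1.2%) were at least 2-fold higher and 31 (0.524%) at least 2-fold lower. MHC class II genes had 5 of 6 higher with a median log2 of 1.90, from H2-Eb1 at 1071 against 223 CPM, ratio 4.80 (4.26 to 5.43) and H2-Ab1 at 4.34 to the invariant chain Cd74 at 2.64. This list was also higher in neutrophils (4 of 6), T cells (4 of 8), NK cells (3 of 5) and classical monocytes (3 of 7). It had 2 of 8 higher in microglia, 1 of 10 in macrophages and in cDC2, and 2 of 10 in the remaining phagocytes. B cells had 0 of 11 and cDC1 0 of 10. The source of these UMIs in each gate was not tested. Dcn and Igfbp5 in this gate came from 1 laser cell each.

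In T cells (652 and 621 cells), 229 of 9046 genes tested (2.53%) were at least 2-fold higher and 56 (0.619%) at least 2-fold lower. The interleukin 17 program had 7 of 8 higher (median log2 2.46), with Il17a at 137 against 6.27 CPM, ratio 21.8 (14.5 to 34.3) and Cd163l1 at 121 against 14.9 CPM, ratio 8.15 (6.19 to 10.9). Cd163l1 was spread over more cells, with 6.43% of its laser UMIs in the cell of highest count against 44.5% for Il17a, whose ratio was 48.5 without the cell of highest count in each library. Ifitm1 was at 60.6 against 2.61 CPM, ratio 23.2 (12.4 to 48.96). In NK cells (282 and 328 cells), 72 of 6645 genes tested (1.08%) were at least 2-fold higher and 44 (0.662%) at least 2-fold lower. Granzyme C (Gzmc) was at 118 against 5.95 CPM, ratio 19.9 (10.3 to 44.1), with 59.9% of its laser UMIs in 1 cell, and Retnla owed 99.3% to 1 cell and had a ratio of 0.292 without the cell of highest count in each library.

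In neutrophils (149 and 185 cells), 297 of 4715 genes tested (6.3%) were at least 2-fold higher and 148 (3.14%) at least 2-fold lower. Leukotriene C4 synthase (Ltc4s) was at 139 against 6.55 CPM, ratio 21.2 (9.98 to 54.01), and Siglecf, a sialic acid receptor best known on eosinophils, at 131 against 8.43 CPM, ratio 15.5 (7.88 to 34.8) with a UMI in 32.9% and 4.86% of laser and control cells. In the Nr4a1-/- neutrophils these ratios were 19.7 and 14.01. The cytokine Il1a was at 211 against 34.6 CPM, ratio 6.08 (4.24 to 8.92). In B cells (410 and 877 cells), 101 of 8823 genes tested (1.14%) were at least 2-fold higher and 68 (0.771%) at least 2-fold lower. Of the phagocyte list 6 of 8 genes were at least 2-fold higher in B cells, with Spp1 at 165 against 3.94 CPM, ratio 41.8 (26.1 to 71.4) and Cd63 at 70.8 against 15.3 CPM, ratio 4.62 (3.47 to 6.21). These genes were high in the macrophages of the laser library. A single laser B cell barcode held 28.6% of the Spp1 UMIs of the gate. The source of these UMIs was not tested. In the remaining phagocytes (165 and 113 cells), 210 of 5485 genes tested (3.83%) were at least 2-fold higher and 349 (6.36%) at least 2-fold lower.

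The antibody tags are a second readout of the same cells, in counts of 87 tags summed over kept barcodes (2039374 laser and 1897209 control) and scaled to the total. Of 86 tags tested, 23 (26.7%) were at least 1.5-fold higher and 26 (30.2%) at least 1.5-fold lower. Many sums rested on single barcodes. A single control barcode held 98.4% of the CD86 counts and 1 held 91.9% of the CD3 counts, and over 50% of the counts lay in 1 barcode for 6 tags in the laser library and 3 in the control. Without the 38 barcodes per library with the most tags, an alternative chosen after seeing the data, 20 (23.3%) were higher and 24 (27.9%) lower. The CD86 ratio went from 0.0704 to 4.24, the CD3 ratio from 0.165 to 1.02, that of Ly-6C from 28.9 to 2.67, that of P2Ry12 from 12.97 to 1.58 and that of MAC-2 (galectin 3) from 25.4 to 6.48. The values that follow leave these barcodes out.

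CD64_FcYRI, the high-affinity IgG receptor of macrophages and monocytes, had the highest tag ratio, 44.4 (38.8 to 51.2), and was found on 62.8% of the laser cells and 4.64% of the control cells. Its gene Fcgr1 had an RNA ratio of 2.47. The tag was higher in each of the 11 gates compared, at 62.7 in macrophages, 20.97 in B cells and 13.7 in T cells, although lymphocytes are not known to carry this receptor. Its ratio in the Nr4a1-/- pair was 0.758. CD107a was at 20.4 (18.4 to 22.8) with its gene Lamp1 at 1.45, and CD106 at 20.3 (16.6 to 25.1), where the gene Vcam1 went the other way (0.582). These tags were higher in lymphocyte gates too, CD107a at 17.2 in B cells and 22.4 in T cells, and CD106 at 28.6 and 17.3. Control counts were near the floor, with means over all kept barcodes of 0.0582 per cell for CD64_FcYRI, 0.104 for CD107a and 0.0279 for CD106. The cause of these ratios was not tested. CD317 was at 7.16 (6.68 to 7.68) with Bst2, an interferon-stimulated gene, at 2.17, and Podoplanin at 3.29 (3.19 to 3.41) with Pdpn at 4.23, so these tags and genes lay on the same side. The Podoplanin tag was higher in the B cell gate too, at 9.07. In the Nr4a1-/- pair the CD317 tag was at 1.07 and the Podoplanin tag at 0.875. The complement receptor C5AR_CD88 was at 4.85 (4.66 to 5.05) while its gene C5ar1 was at 1.03.

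Among the lower tags, CD23 of B cells was at 0.226 (0.203 to 0.251) with its gene Fcer2a at 0.371. CD55 was at 0.339 (0.330 to 0.348) with Cd55 at 0.400, and CD11a at 0.559 (0.552 to 0.567) with Itgal at 0.652. For 3 tags of macrophages the RNA over all cells lay on the other side of 1. F4_80 was at 0.279 (0.268 to 0.289) while Adgre1 was at 1.56, FrB at 0.408 (0.401 to 0.414) while Folr2 was at 1.43, and Tim-4 at 0.475 (0.450 to 0.502) while Timd4 was at 1.25. The F4_80 tag was lower within macrophages too, at 0.206, and within B cells, at 0.330. Within macrophages the Tim-4 tag was at 0.219, and Timd4 was lower there as well, on the same side. The FrB tag was at 0.233 there, while Adgre1 and Folr2 are markers of the gate and were left out of results within it. Each tag is a share of all tag counts of its library, so that a high tag lowers the rest.

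**Figure D5:**
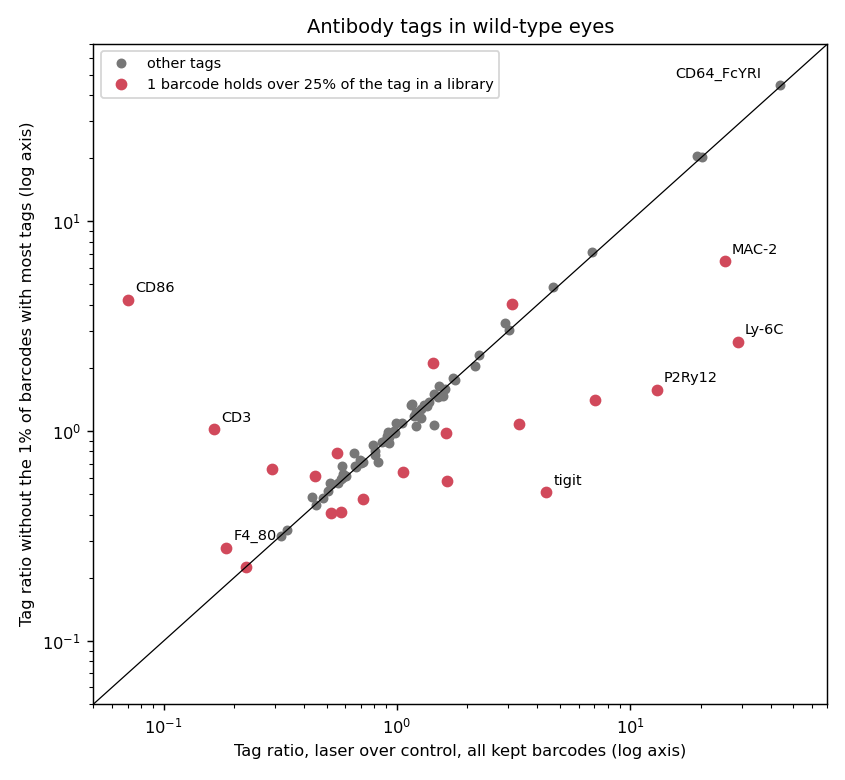
Ratio of laser to control of each antibody tag over all kept barcodes (x axis) against the same ratio without the 1% of barcodes with most tags (y axis), both on log axes, with the line of equality. Red points are tags with over 25% of their counts in 1 barcode of a library. CD64_FcYRI lies on the line at 44.4, while CD86 goes from 0.0704 to 4.24 and Ly-6C from 28.9 to 2.67.

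The Nr4a1-/- pair shares no library with the WT pair but differs in genotype, in strain background per the methods, and in depth. Of 11756 genes tested in both, 219 were at least 2-fold higher after laser in WT and 297 in Nr4a1-/- (2.53% of the 11757 tested there), with 123 shared, 56.2% of the WT genes and 41.4% of the Nr4a1-/- genes. Of the 303 lower WT genes and 558 lower Nr4a1-/- genes (4.75%), 200 were shared, 66.01% and 35.8%. Genes at least 2-fold in opposite directions numbered 3 among the WT higher genes (Cpa3, Lpcat4 and Olfr1369-ps1) and 3 among the WT lower genes (Mgp, Igfbp5 and Hist2h2ac). Cpa3, a mast cell protease gene, was at 3.02 in WT and 0.423 in Nr4a1-/-, and Mgp at 0.262 and 17.2. These 6 were named after their values were seen. Spp1 (25.1 in WT, 110.4 in Nr4a1-/-), Fabp5 (7.66, 10.7) and Gpnmb (9.52, 6.59) were higher in both. Whether the ratios differ between genotypes was not tested, because each rests on 1 library per group.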

How the data were processed

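The authors deposited raw UMI counts per gene and cell as filtered 10x matrices, in which 32285 gene rows and 87 antibody tag rows share barcodes. Per the labels these came from Cell Ranger 7.0.1 on mm10. The extract label names a 3' v2 kit and the study's methods v3. Barcodes were kept here if they held from 200 up to 5000 genes and no more than 15% of mitochondrial UMIs. No doublet caller was run. Doublets were limited only by the upper gene limit, and an alternative left out barcodes with markers of several lineages.

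UMIs were summed per library or gate and scaled to CPM. Genes with at least 50 UMIs in the pair were described by the CPM ratio with an exact conditional binomial 95% interval, shares by Clopper-Pearson intervals. These cover counting error only, since PCR, pools and animals are not in them. A ratio of at least 2-fold (tags, 1.5-fold) counted as higher or lower. A control count of 0 was set to 3 to give a fold value, which leaves out the counting error of the laser count. The gates, the 31 gene lists and the comparison were chosen with earlier results of these data known. Named genes were, per direction, the 12 (6 in each gate, 6 tags) whose interval bound nearest to 1 was farthest from 1, without mitochondrial, Gm, Rik and receptor segment genes, then up to 5 per list by size and 11 genes the study names. Values of others were named for context after they were seen. Clec7a and Mx1, members of 2 lists, were not analysed here, and results of some genes and tags that the rules named are not reported here. The method was tested on simulated data at the WT depths over 14210 genes, where 3-fold changes were called in 100% and unchanged genes in 0.0856%. Simulated 1.5-fold higher genes, which lie under the limit, were called in 4.17%. The simulation drew each gene total by Poisson counting, without single cells, pools or libraries. Its rates therefore cover counting error only and do not give the rate of false calls in these data. Promoter bases are RefSeq sequence of GRCm38.p6, gene positions GENCODE on GRCm38. Arg1 had no promoter entry. Computation used scipy 1.17.1 and numpy 2.4.6, with tables in pandas 2.3.3 and plots in matplotlib 3.10.9, under Python 3.11.15. Alternatives were other scaling, filters, fold limits, marker limits and thinning to 2000 UMIs per cell. Leaving out the cell of highest count for each gene and the 1% of barcodes with most tags was added after seeing the data.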

Additional observations from a re-analysis of the deposited data

Results flagged for a closer look

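These ratios of laser to control lay on opposite sides of 1 in the WT and Nr4a1-/- pairs, and the difference was not tested, since each group is 1 pooled library. Over all cells Myoc was at 0.0195 in WT and 12.3 in Nr4a1-/-, and Smoc2 at 0.0125 in WT and 17.6 in Nr4a1-/-. The share of ungated barcodes was at 0.554 in WT and 2.10 in Nr4a1-/-. Among tags, without the barcodes with most tags, CD64_FcYRI was at 44.4 in WT and 0.758 in Nr4a1-/-, CD106 at 20.3 in WT and 0.424 in Nr4a1-/-, Podoplanin at 3.29 in WT and 0.875 in Nr4a1-/- and tigit at 0.510 in WT and 1.32 in Nr4a1-/-. The CD11c tag, not among the tags screened for this list, was at 0.895 in WT and 13.4 in Nr4a1-/- on the same setting. In NK cells Cdk8 was at 0.452 in WT and 1.36 in Nr4a1-/-. In classical monocytes Retnla was at 0.287 in WT and 30.5 in Nr4a1-/-, Lyz1 at 0.451 in WT and 5.25 in Nr4a1-/-, Cmss1 at 0.479 in WT and 1.07 in Nr4a1-/- and Cdk8 at 0.494 in WT and 1.51 in Nr4a1-/-. In cDC1 Hist1h1b was at 0.167 in WT and 1.85 in Nr4a1-/-. In cDC2 Thbs1 had no control UMI in WT and was 8.63-fold higher with that count set to 3 (lower interval limit 6.88). In Nr4a1-/- it was at 0.439.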

How the results depend on the processing

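No paired analysis was possible because each group is 1 library. Counts of higher and lower genes were 570 and 378 with equal weight per cell, 897 and 1379 with at least 10 UMIs, 204 and 233 with at least 200 UMIs, 1107 and 1809 at a 1.5-fold limit and 240 and 195 after thinning to 2000 UMIs, and 328 genes were lower with class shares set to those of the control. Migratory DC were at a share ratio of 12.1 with at least 4 markers, microglia at 0.809 and other phagocytes at 2.16 after thinning, and B cells at 0.396 and neutrophils at 1.00 without mixed barcodes. At a 2-fold limit 11 tags were lower. Within gates, 1.98% of genes were higher and 1.44% lower with at least 200 UMIs. After thinning, 69.2% of higher and 71.9% of lower WT genes were also so in Nr4a1-/-. The other 127 values of the main comparisons moved by less than their limit. Median log2 ratios changed sign for homeostatic microglia genes (0.0833 with equal weight per cell, 0.0854 thinned), T cell genes (0.137, 0.0258), endothelial genes (-0.0849 with at least 200 UMIs, -0.103 with no upper gene limit), pigment epithelium genes (0.28 without that gate), hypoxia genes (-0.0974) and heme genes (0.0232) without mixed barcodes, and complement (-0.0314) and cytotoxic genes (0.0389) with control class shares. With median-of-ratios scaling the medians of resident macrophage (0.0353), heat shock (0.0253) and fibroblast genes (0.0269) lay above 0, and fibroblast genes were at 0.477 with equal weight per cell. Single genes that crossed 1 were Rgr (1.29 without the pigment epithelium gate), Igf1 (0.956 without mixed barcodes, 0.836 with control class shares) and Nr4a1 (1.05 with control class shares). The CD86 tag was at 2.89 as a mean of per-cell shares and at 4.24 without the barcodes with most tags, where the CD3 tag was at 1.02. The cause was not tested.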

Other observations

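Outside the lists, Cmss1 and the kinase gene Cdk8 were lower after laser in several gates at high counts. Cmss1 was at 3006 against 6904 CPM, ratio 0.435 (0.421 to 0.450) in NK cells, 2154 against 5065 CPM, ratio 0.425 (0.407 to 0.445) in non-classical monocytes and 2696 against 5785 CPM, ratio 0.466 (0.453 to 0.479) in B cells. Cdk8 was at 647 against 1432 CPM, ratio 0.452 (0.419 to 0.486) in NK cells and 467 against 917 CPM, ratio 0.509 (0.461 to 0.561) in non-classical monocytes. No cell held more than 3% of these counts. In the Nr4a1-/- gates Cmss1 was at ratios of 1.01 in NK cells, 0.926 (0.653 to 1.29) in non-classical monocytes and 0.788 in B cells. The Nr4a1-/- gate of non-classical monocytes held only 2 laser and 6 control cells, with 45 against 188 UMIs of Cmss1. Bmp2 was lower in B cells, with 2 laser UMIs against 150 control UMIs, of which 1 cell held 40%.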
